A study of Triticum aestivum with 24 samples.

Results

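A set of 60 leaf transcripts of wheat, from 60 genes, was low at the end of a heat treatment and close to the control level from 1 day later. Its members were chosen by their measured values from 137056 transcripts, with the estimated counts expressed as counts scaled to a library total of 1000000 (CPM, counts per 1000000). A transcript entered the set if its mean was at least 4 CPM in control and at least 0.2 CPM in heat at 0 days after treatment (DAT), if its highest heat value lay below its lowest control value there, and if the heat to control ratio of means was at most 0.25 at 0 DAT and between 0.67 and 1.5 at both 1 and 4 DAT. These limits fix the low level at 0 DAT and the near-control level later, so the values of heat against control are given as a description and carry no test.

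Plants of Triticum aestivum cv Chinese Spring, all grown from the selfed seed of 1 plant, were divided at the boot stage, when the head is still inside the leaf sheath. The heat group (72 plants) spent 5 days at 37°C with ample water, whereas the control group (72 plants) stayed at 18°C in 16 h of light and 16°C in 8 h of darkness. Leaves were taken from heat and control plants as the stress ended (0 DAT), and then at 1 DAT and 4 DAT, and mRNA was sequenced in 4 libraries for each treatment and time, 24 in all. The study describes its replicates as pools of RNA from 18 plants for its small RNA libraries, and the same pools are assumed here for mRNA.

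Bread wheat carries 3 related genomes, A, B and D, and each transcript identifier states the chromosome of its gene, or U where the chromosome is not assigned. During heat stress plant leaves make large amounts of messenger RNA for chaperones and other protective proteins, while many transcripts of growth and photosynthesis decline; after the stress both groups can drift back. A transcript can also differ between days in plants that were never heated, through leaf age or the hour of sampling, and a near-control ratio can therefore be reached from either side. None of the 60 identifiers matched the gene table used here, which covers a later annotation, so no gene name, function, coordinate or sequence is given for any of them.

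Library totals lay between 5403461 and 16112270 estimated counts, and 12 of the 60 members had fewer than 10 counts in at least 1 heat library at 0 DAT. In 4 libraries (heat 1 DAT replicate 3, heat 4 DAT replicates 2 and 4, and control 4 DAT replicate 2) a single transcript, TraesCS1A01G000100.1, took 3.67 to 6.95% of all counts. Without those libraries 65 transcripts met the limits, 48 of them among the 60. The middle of the whole data set also depended on the scaling. By library totals, the median log2 heat to control ratio of all tested transcripts was 0.53 at 0 DAT, and with TMM factors, which set the bulk of transcripts equal, it was 0.03. In bulk leaf RNA, fewer cells of a type and less RNA per cell cannot be told apart.

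At 0 DAT the members were at 0.080 to 0.248 of control, with a median ratio of 0.189. Their median log2 ratio was -2.41, which is -2.94 relative to the median of all tested transcripts. Together the 60 members made up 0.121 ± 0.0176% of counts in the heat libraries of 0 DAT and 0.681 ± 0.0559% in the control libraries (mean ± SD of 4). At 1 DAT the share was 0.421 ± 0.0566% in heat and 0.503 ± 0.0725% in control, and at 4 DAT it was 0.515 ± 0.0912% in heat and 0.533 ± 0.0943% in control. The summed share thus overlapped between heat and control libraries at 1 DAT (0.372 to 0.484% in heat, 0.419 to 0.572% in control) and at 4 DAT (0.414 to 0.628% in heat, 0.412 to 0.625% in control). Heat and control did not overlap at 0 DAT in any of the 60 members, as the rule requires, and heat lay wholly below control there in 6.3% of the 54517 tested transcripts.

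**Figure D1:**
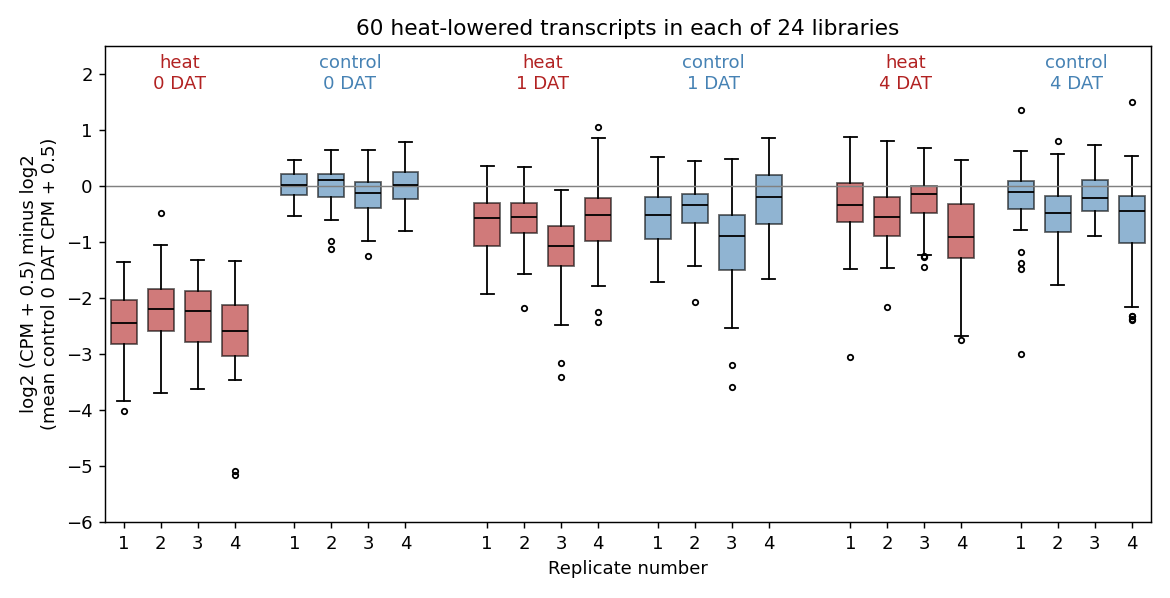
Level of the 60 members in each library, as log2 of CPM plus 0.5 relative to the member's own control mean at 0 DAT, with heat in red left of control in blue at 0, 1 and 4 DAT; boxes span the quartiles over members, the line is the median and whiskers reach 1.5 times the box height. The 4 heat libraries at 0 DAT sit far below all others, and the libraries of both treatments at 1 and 4 DAT have medians below the line at 0, of about -1.1 to -0.1.

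Most transcripts that were low at 0 DAT did not have a near-control level at both later times. Of 406 transcripts that met the same limits at 0 DAT, 60 (14.8%) were within 0.67 to 1.5 of control at both later times. Another 161 were still below 0.67 at both times, and 149 were below at 1 DAT but within the limits at 4 DAT. A further 17 were within the limits at 1 DAT and below them at 4 DAT, and the remaining 19 had a ratio above 1.5 at 1 or 4 DAT. The share depended on the scaling: with TMM totals 163 of 755 (21.6%) and with DESeq2 size factors 168 of 743 (22.6%) were within the limits at both times, alternatives added after the data were seen. The transcripts that stayed below at both times had a median ratio of 0.131 at 0 DAT, against 0.189 for the members, and their median control level at 0 DAT was 14.9 CPM, against 20.6 CPM for the members.

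The members did not sit at exact equality with control later. The ratio at 1 DAT ran between 0.675 and 1.48 with a median of 0.819, and 46 of the 60 were below 1. At 4 DAT it ran between 0.681 and 1.32 with a median of 0.920, and 41 were below 1. In 34 members the ratio was below 1 at both times, in 7 it was above 1 at both, and in 43 it was closer to 1 at 4 than at 1 DAT. Only 14 members at 1 DAT and 21 at 4 DAT lay between 0.9 and 1.1. Relative to the median of all tested transcripts, the median log2 ratio was -0.30 at 1 DAT and -0.01 at 4 DAT.

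Without regard to replicate number, library values of heat and control were fully apart in few members at the later times; pair by pair, heat lay on 1 side of control in all 4 same-numbered pairs in more of them, at 1 DAT below in 15 (background 15.9%) and above in 2 (background 19.5%), and at 4 DAT below in 9 (background 15.7%) and above in 3 (background 5.93%). The rule bounds the ratio of means of the members at both times, whereas the background transcripts have no such bound. Low counts of members apart are thus largely built in, and nothing is drawn from them against the background. By whole groups at 1 DAT, 1 member lay wholly below control (background 3.12%) and none lay wholly above (background 6.97%). This was TraesCS3B01G018400.1, with 7.24, 8.30, 7.62 and 6.06 CPM in heat against 9.77, 12.3, 11.7 and 9.34 CPM in control. At 4 DAT, TraesCS5A01G037900.1 lay wholly below control (background 2.38%), with 10.6, 9.10, 11.7 and 6.83 CPM in heat against 18.1, 13.3, 12.4 and 11.9 CPM in control. TraesCS1D01G375100.1 lay wholly above control at 4 DAT (background 1.09%), with 325, 320, 344 and 357 CPM in heat against 295, 233, 278 and 316 CPM in control.

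The most abundant member was TraesCSU01G167700.1, whose gene has no assigned chromosome. It had 276, 407, 490 and 386 CPM in heat at 0 DAT, against 1761, 2384, 2413 and 1712 CPM in control. At 1 DAT it had 1374, 1310, 1351 and 433 CPM in heat against 1510, 1698, 2705 and 651 CPM in control. At 4 DAT the heat libraries (1569, 1468, 1823 and 1656 CPM) overlapped the control libraries (1655, 983, 1411 and 1792 CPM). The low value of replicate 4 at 1 DAT thus appeared in both treatments, and the ratio of means at that time, 0.681, was close to the lower limit of the rule.

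TraesCS1D01G375700.1 was the next most abundant, with 112, 173, 125 and 143 CPM in heat at 0 DAT against 1055, 1234, 719 and 1112 CPM in control. At 1 DAT it averaged 604 ± 135 CPM in heat and 492 ± 167 CPM in control, and at 4 DAT 623 ± 155 CPM in heat plants and 701 ± 261 CPM in control plants (SD of 4 libraries). Its control level at 1 DAT was wholly below that at 0 DAT, so the ratio near 1 was reached with heat plants still well short of the control level of the day before. TraesCS1A01G369600.2 also had a lower control mean at 1 than at 0 DAT, although its control libraries overlapped, with 49.9 ± 7.89 CPM in heat and 437 ± 152 CPM in control at 0 DAT, and with 236 ± 99.3 CPM in heat and 192 ± 71.7 CPM in control at 1 DAT.

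The largest reduction at 0 DAT was that of TraesCS7B01G257400.1, 12.5-fold. It had 4.33, 3.02, 3.07 and 3.54 CPM in heat against 54.3, 50.5, 35.3 and 34.4 CPM in control. At 1 DAT it had 20.5, 27.7, 21.2 and 43.4 CPM in heat against 16.4, 30.7, 17.3 and 40.3 CPM in control, and at 4 DAT 36.5, 21.0, 41.5 and 7.93 CPM in heat against 27.2, 21.1, 24.8 and 8.03 CPM in control. The replicates spread widely at both later times, but those with the same number were high or low together in heat and control.

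TraesCS1A01G152800.1 was 12.2-fold lower at 0 DAT, with 5.98, 7.66, 8.35 and 12.3 CPM in heat against 118, 112, 66.8 and 121 CPM in control. At 1 DAT it had 57.1, 92.5, 81.9 and 50.5 CPM in heat against 31.5, 73.0, 61.2 and 53.1 CPM in control. By 4 DAT the heat libraries held 151, 106, 135 and 145 CPM and the control libraries 144, 77.7, 154 and 41.9 CPM. Its mean in heat at 4 DAT (134 ± 20.3 CPM) was above its mean in control at 0 DAT (105 ± 25.4 CPM), which was the case in 7 of the 60 members.

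The other members with the lowest ratios at 0 DAT, TraesCS5D01G560200.1 (0.098), TraesCS3D01G127300.1 (0.110), TraesCS6D01G202000.1 (0.115), TraesCS5A01G205600.1 (0.121) and TraesCSU01G106300.1 (0.125), were less abundant, with control means of 15.4 to 41.5 CPM. TraesCS5D01G560200.1 had 3.04, 1.08, 2.72 and 0 CPM in heat at 0 DAT against 18.5, 24.98, 16.4 and 9.77 CPM in control. TraesCS3D01G127300.1 had 1.31, 2.91, 3.11 and 0.000516 CPM in heat at 0 DAT against 11.3, 13.4, 26.0 and 15.7 CPM in control. In both, heat replicate 4 was the lowest library, and the ratio depends on a few counts. TraesCS3D01G127300.1 made up 98.6% of the counts of its gene in control at 0 DAT and 60.7% in heat. The ratio of that gene was 0.18, and whether reads were divided differently between its transcripts was not tested. Over all members the median coefficient of variation in heat at 0 DAT was 32.6%, against 18.6% in tested transcripts with a control mean of at least 4 CPM there. Those transcripts were not matched to the members for their level in heat, where the members were chosen to be low. In control at 0 DAT the medians were 21.4% and 18.0%.

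**Figure D2:**
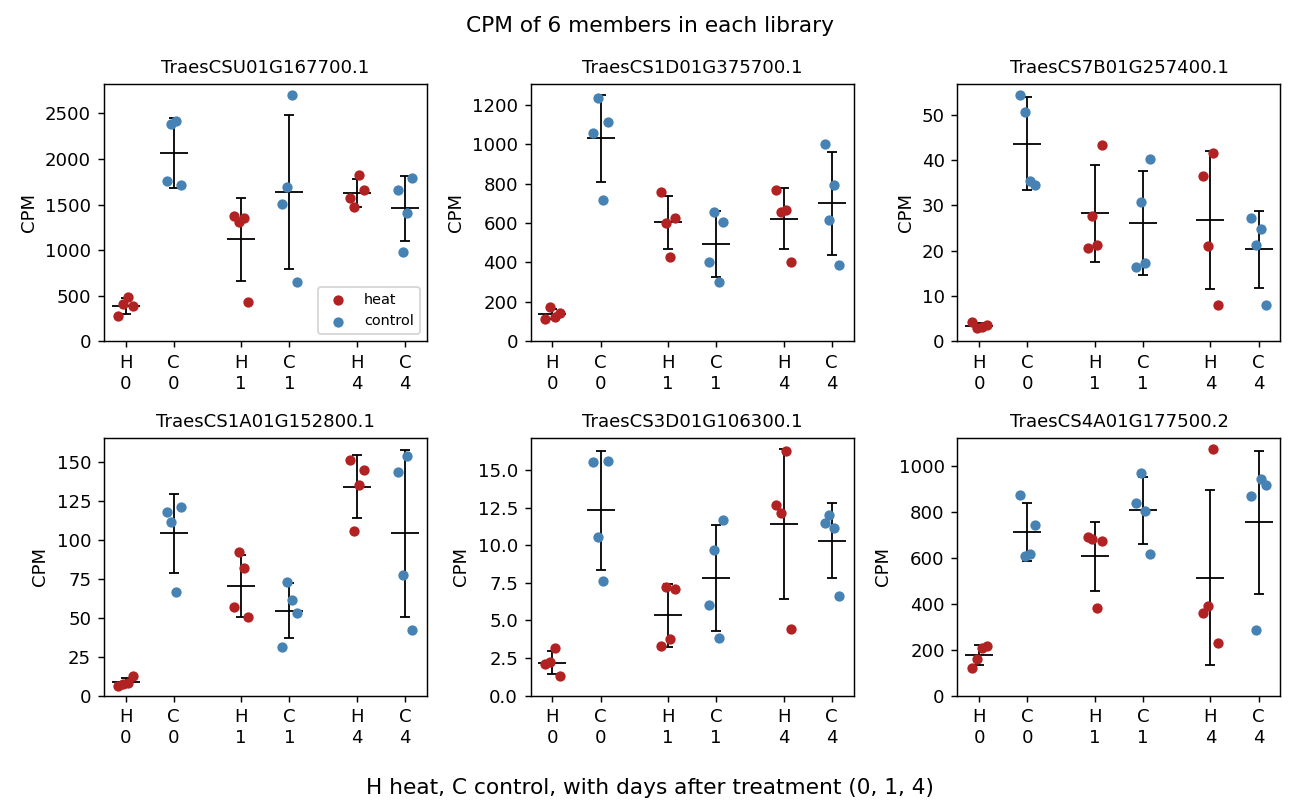
CPM of 6 members in each library, with heat (H, red) left of control (C, blue) at 0, 1 and 4 DAT; points are libraries, the bar is the mean and the whiskers are 1 SD (n = 4). In TraesCSU01G167700.1 the heat libraries are at 276 to 490 CPM at 0 DAT and at 1468 to 1823 CPM at 4 DAT.

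Just inside the limit of 0.25 at 0 DAT were TraesCS4A01G120700.1 (0.248), TraesCS4A01G177500.2 (0.248) and TraesCS5D01G196300.2 (0.247), and just outside were TraesCS6B01G434700.1 (0.251), TraesCS1B01G434100.2 (0.253) and TraesCS2D01G066000.1 (0.255). The values on both sides of the limit were nearly alike, and the set has no natural edge there. At the lower limit at 1 DAT, TraesCS2B01G193500.1 and TraesCS3B01G185700.1 were just inside (0.675 each) and TraesCS1D01G280200.2 just outside (0.669).

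Which side moved between 0 and 1 DAT can be read from each treatment alone, again as a description. In heat all 60 members were higher at 1 than at 0 DAT, with a median log2 change of 1.79 by library totals and 2.26 with TMM factors. The 4 heat libraries at 1 DAT were all above the 4 at 0 DAT in 45 members (background 3.22%). In control, 55 members were lower at 1 than at 0 DAT, with a median log2 change of -0.43, against -0.06 in tested transcripts with a control mean of at least 4 CPM at 0 DAT, 59.1% of which were lower. With TMM factors 53 members were lower, with a median of -0.42 against -0.01 and 52.3%. The control libraries at 1 DAT were wholly below those at 0 DAT in 6 members (background 2.28%), namely TraesCS1D01G375700.1, TraesCS7D01G370400.1, TraesCS3B01G018400.1, TraesCS1A01G110900.2, TraesCS4A01G442800.1 and TraesCS5D01G196300.2. The control values at 0 DAT were used to choose the members as high, so a lower control value at another time is partly built into the set. The heat values at 0 DAT were likewise used to choose them as low, and a near-control ratio was asked for at 1 DAT. A higher heat level at 1 DAT is thus largely built in, and its counts against the background are no separate support.

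Within this set, which was chosen by its ratios at 0 and 1 DAT, the lower control level was the smaller part of the change in the ratio. It made up a median of 17.9% of the log2 change of the ratio between 0 and 1 DAT, and more than the rise in heat in a single member, TraesCS4A01G389900.1 (57.2%). This transcript had 4.84, 6.81, 6.33 and 4.97 CPM in heat at 0 DAT against 29.0, 25.2, 13.1 and 31.7 CPM in control. At 1 DAT it had 7.17, 13.2, 5.88 and 15.5 CPM in heat against 9.83, 12.7, 4.59 and 17.4 CPM in control. Its heat libraries at 1 DAT overlapped those at 0 DAT, and the ratio near 1 came mostly with the control libraries being lower.

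Measured against the control level at 0 DAT, by which the members were chosen as high, most members were lower in heat at the later times. The heat mean at 1 DAT was a median of 0.629 of the control mean at 0 DAT, and only TraesCS4B01G021300.1 and TraesCS7D01G540700.3 were at or above it. TraesCS4B01G021300.1 had 1.12, 1.92, 2.00 and 1.69 CPM in heat at 0 DAT and 9.64, 11.1, 6.56 and 19.4 CPM in heat at 1 DAT, against 10.2, 9.10, 5.91 and 11.1 CPM in control at 0 DAT. At 4 DAT the heat mean was a median of 0.729 of the control mean at 0 DAT. The control means of the members were also lower than at 0 DAT, with a median log2 change of -0.43 at 1 DAT and -0.26 at 4 DAT. Values below the control level of 0 DAT are thus partly built in and do not by themselves show an incomplete return. Transcripts that stayed below control at both later times also had lower control levels at 1 DAT, with a median log2 change of -0.55 and 85.1% lower, against -0.43 and 91.7% for the members. Their heat level had a median log2 change of 0.34 between 0 and 1 DAT, against 1.79 for the members, a difference that the choice of the 2 sets brings with it.

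**Figure D3:**
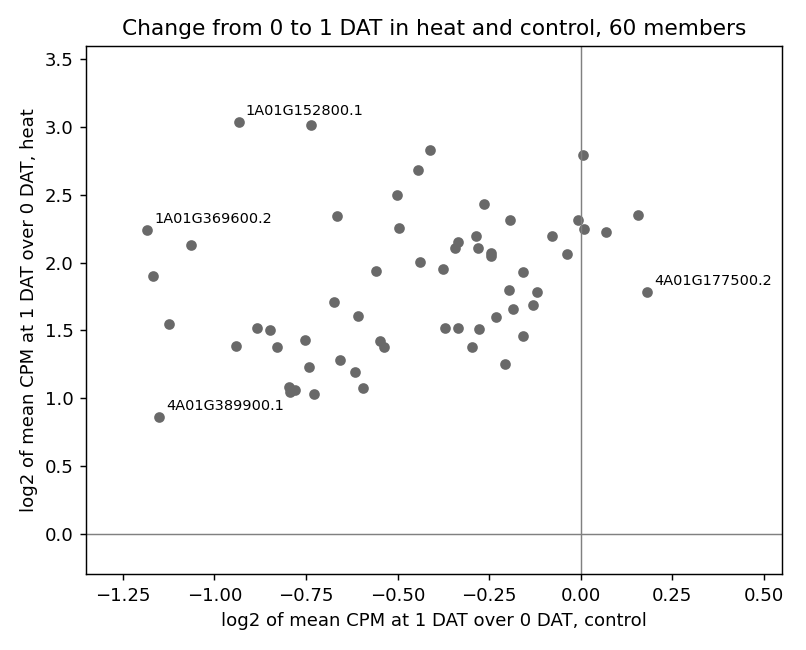
Change between 0 and 1 DAT for each of the 60 members, as log2 of the ratio of mean CPM, in control (horizontal axis) and heat (vertical axis). All 60 points are above 0 in heat, and 55 are left of 0 in control.

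The change between 1 and 4 DAT within a treatment was tested over all 54517 transcripts with edgeR's quasi-likelihood test. The rule did not use this change itself, but it bounded the heat to control ratio at both times, so the change in heat could differ from that in control only within those bounds, and the members' counts and medians below are read as a description. In heat 3760 transcripts passed an adjusted p of 0.05, 1477 higher (2.71%) and 2283 lower (4.19%) at 4 DAT. Of the 60 members 1 was higher and none was lower, and at an unadjusted p under 0.05 there were 12 members, all of them higher (9.83% of all tested transcripts were higher and 11.1% lower at that level). The median log2 fold change of the members was 0.22, against 0.00 for all tested transcripts, and 44 of the 60 were above 0, against 50.1% of all. A block for each treatment and replicate number, joining its libraries of all times, lowered the calls over all transcripts to 2223 and left 1 member called. It did not model what same-numbered heat and control libraries of 1 time share.

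The called member was TraesCS3D01G106300.1. It had 12.7, 12.2, 16.3 and 4.44 CPM in heat at 4 DAT, against 3.29, 7.20, 3.78 and 7.12 CPM in heat at 1 DAT. The log2 fold change was 1.11 ± 0.28 (SE), with an adjusted p of 0.019 in edgeR's quasi-likelihood test. In heat, 3 of the 4 libraries at 4 DAT were above every library at 1 DAT, and replicate 4 was within their range. In control it had 11.5, 11.99, 11.1 and 6.60 CPM at 4 DAT against 6.04, 9.70, 3.84 and 11.7 CPM at 1 DAT, with a log2 fold change of 0.30 ± 0.27 and an adjusted p of 0.99. Whether the changes in heat and control differ was not tested, since the rule bounds both ratios. The call in heat was lost without heat 1 DAT replicate 1 (adjusted p = 0.074), heat 4 DAT replicate 2 (adjusted p = 0.058) or heat 4 DAT replicate 3 (adjusted p = 0.074), without the 4 libraries rich in TraesCS1A01G000100.1 (adjusted p = 0.052), and in a fit of the 8 heat libraries alone (adjusted p = 0.071), all from edgeR's quasi-likelihood test. With column totals alone it was also lost (adjusted p = 0.15), and adjusted p-values over all alternatives, DESeq2 included, ran between 0.0014 and 0.15. The log2 fold change stayed between 0.96 and 1.32 in all of these alternatives.

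Members that were higher at 4 DAT in heat without passing the adjusted threshold included TraesCS7D01G111600.1 (log2 fold change 0.72, adjusted p = 0.064 in edgeR) and TraesCS2D01G158600.1 (0.82, adjusted p = 0.092 in edgeR). TraesCS4D01G027800.1 had 150, 100, 94.3 and 93.9 CPM in heat at 4 DAT against 40.8, 74.1, 79.1 and 74.0 CPM in heat at 1 DAT, with a log2 fold change of 0.70 ± 0.26 and an adjusted p of 0.12 in edgeR. Its 4 libraries at 4 DAT were all above the 4 at 1 DAT, but this difference did not pass the threshold. Such a separation also occurred in other members, such as TraesCS1A01G152800.1, and its share over all transcripts was not counted. Among the transcripts still below control at both later times 20 of 161 were called higher at 4 DAT in heat, against 2.71% of all tested transcripts. They too were chosen by their ratios at each time, low at 1 DAT among them, so this count is a description and not a contrast with the members. Among those below the limits at 1 DAT and within them at 4 DAT 42 of 149 were called higher, and there a higher heat to control ratio at 4 DAT is part of the definition.

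In control no transcript was called between 1 and 4 DAT by edgeR's quasi-likelihood test, and 2924 (5.36%) had an unadjusted p under 0.05; the likelihood ratio test of edgeR called 13 and DESeq2 44, none of them a member. In control 1 member had an unadjusted p under 0.05, in the higher direction, in which 2.7% of all tested transcripts did, and none in the lower direction, in which 2.67% did. This was TraesCS1A01G369600.2, with 485, 390, 505 and 160 CPM at 4 DAT against 181, 206, 104 and 278 CPM at 1 DAT in control. Its log2 fold change was 0.86 ± 0.28, with an adjusted p of 0.92 in edgeR's quasi-likelihood test. The median log2 fold change of the members in control was -0.01, the same as that of all tested transcripts.

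Heat and control libraries with the same replicate number varied together at the later times. For each transcript the deviation of a library from the mean of its own treatment and time was taken on a log2 scale (TMM-scaled CPM plus 0.5). Over the 60 members the correlation between same-numbered heat and control libraries was 0.42, 0.73, 0.85 and 0.82 for replicates 1 to 4 at 1 DAT, and 0.80, 0.35, 0.54 and 0.67 at 4 DAT. Over 24061 tested transcripts with a control mean of at least 4 CPM at 0 DAT the same correlations were 0.13 to 0.46 at 1 DAT and 0.18 to 0.43 at 4 DAT, and over the 161 transcripts that stayed below control they were 0.26 to 0.53 at 1 DAT and -0.09 to 0.30 at 4 DAT. Differently numbered libraries gave -0.75 to 0.14 over the members at 1 DAT and -0.64 to 0.33 at 4 DAT. At 0 DAT same-numbered libraries gave only -0.04 to 0.34. The rule used the heat and control means of 1 and 4 DAT and asked for their closeness, and at 0 DAT for a difference, so the higher values over the members are not independent of how they were chosen. These correlations are over transcripts, which are not independent and share their libraries, so they describe these libraries; what same-numbered libraries share beyond the number is not stated in the sources used here.

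TraesCS5D01G559300.1 shows the pattern, and was chosen for it. At 1 DAT it had 9.60, 26.4, 6.17 and 37.97 CPM in heat against 8.08, 19.1, 3.17 and 30.6 CPM in control. At 4 DAT it had 37.9, 7.22, 19.5 and 3.91 CPM in heat against 54.1, 10.5, 17.7 and 3.73 CPM in control. Replicate 4 was the highest library of both treatments at 1 DAT and the lowest of both at 4 DAT. The spread of the ratio within same-numbered pairs was therefore small. The SD of the log2 ratio over the 4 pairs had a median over members of 0.36 at 1 DAT and 0.34 at 4 DAT, against 0.72 and 0.58 if heat and control libraries were combined without regard to number.

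**Figure D4:**
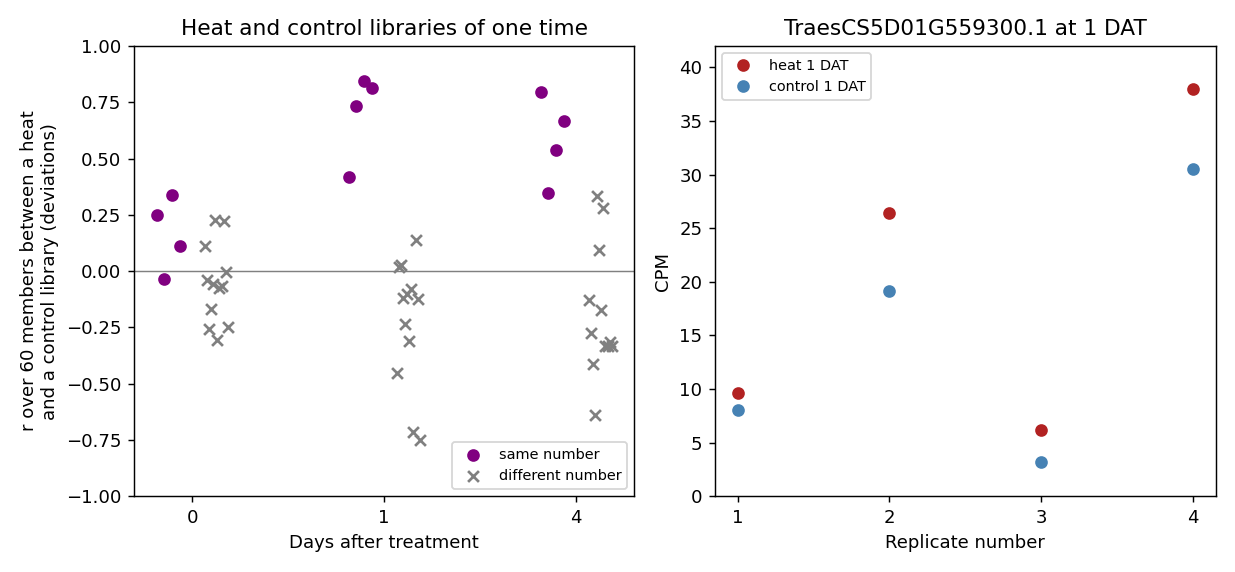
Left, correlation over the 60 members between the deviations of a heat and a control library of the same time, for pairs of the same replicate number (purple circles) and of different numbers (grey crosses); at 1 DAT same-numbered pairs are at 0.42 to 0.85 and others at -0.75 to 0.14. Right, CPM of TraesCS5D01G559300.1 at 1 DAT by replicate number, heat in red and control in blue.

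Some members also varied together among themselves. Over the 24 libraries, 40 of the 1770 pairs of members (2.26%) had a correlation of deviations above 0.8, against 0.726% of pairs of tested transcripts with a control mean of at least 4 CPM at 0 DAT. A raised mean correlation was not particular to the members. The mean correlation over pairs was 0.069 in the members and 0.003 in those tested transcripts, but 0.113 in the transcripts that stayed below control at both later times. The share of pairs above 0.8 was not counted in the transcripts that stayed below. The closest pair was TraesCSU01G167700.1 and TraesCS1D01G375100.1 (r = 0.977). Through such pairs 11 members were linked into 1 set, namely TraesCSU01G167700.1, TraesCS1D01G375100.1, TraesCS1A01G110900.2, TraesCS3B01G018400.1, TraesCS3B01G462800.1, TraesCS4A01G301600.2, TraesCS4B01G013100.2, TraesCS5A01G205600.1, TraesCS5A01G484700.1, TraesCS6D01G189400.1 and TraesCS7D01G130800.1. In this set the median deviation was -0.995 in heat 1 DAT replicate 4 and -0.96 in control 1 DAT replicate 4, whereas it was 0.53 in heat 1 DAT replicate 3 and 0.90 in control 1 DAT replicate 3. The other 49 members had median deviations between -0.17 and 0.12 in those 4 libraries. The linked set is a description drawn from these libraries, and no test was made of it.

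A second linked set held TraesCS6A01G218900.1, TraesCS6B01G248400.1 and TraesCS6D01G202000.1, 1 transcript from each genome of chromosome group 6. TraesCS6A01G218900.1 had 1.83, 3.24, 2.32 and 1.45 CPM in heat at 0 DAT against 8.96, 13.2, 15.2 and 8.48 CPM in control. TraesCS6B01G248400.1 had 3.47, 4.61, 3.44 and 3.13 CPM in heat at 0 DAT against 13.1, 18.7, 17.2 and 12.3 CPM in control. TraesCS6D01G202000.1 had 2.33, 2.34, 1.45 and 0.952 CPM in heat at 0 DAT against 13.8, 17.7, 16.1 and 13.9 CPM in control. Their ratios were 0.193, 0.239 and 0.115 at 0 DAT, 0.819, 0.850 and 0.745 at 1 DAT, and 0.833, 0.851 and 0.807 at 4 DAT. Whether they are copies of 1 ancestral gene was not determined, and reads shared by near-identical copies could not be told apart from separate ones in the estimated counts.

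Most members stood for their gene. In 44 the gene has a single transcript in the table, and in 16 it has several. When the counts of all transcripts of the gene were added, the ratio at 0 DAT was still at most 0.25 in 53 genes and above it in 7. It was within the limits at 1 and 4 DAT in 59 genes, and the exception was TraesCS5D01G181600 (1.591 at 1 DAT). A second transcript with at least 4 CPM in control at 0 DAT was present in 6 genes, and for these the low value belonged to 1 transcript or to both.

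In TraesCS1A01G110900 the member alone lay below control without overlap. TraesCS1A01G110900.2 had 32.1, 25.9, 31.6 and 18.2 CPM in heat at 0 DAT against 117, 149, 136 and 139 CPM in control. TraesCS1A01G110900.1 had 89.2, 144, 147 and 133 CPM in heat at 0 DAT against 150, 137, 162 and 165 CPM in control. The second transcript overlapped between heat and control, and the ratio of the gene was 0.538. The member made up 46.8% of the counts of its gene in control.

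TraesCS4A01G177500.2 was a minor transcript of a highly abundant gene, with 10.1% of its counts in control at 0 DAT. It had 122, 160, 207 and 218 CPM in heat at 0 DAT against 875, 610, 618 and 745 CPM in control. The major transcript TraesCS4A01G177500.1 had 1957, 2548, 2778 and 2477 CPM in heat at 0 DAT against 5319, 5194, 4923 and 5409 CPM in control. Both transcripts were lower in heat without overlap, and the ratio of the gene was 0.434. The member was also low in libraries rich in TraesCS1A01G000100.1, with 381 CPM in heat 1 DAT replicate 3 against 672 to 690 CPM in the other heat libraries at 1 DAT, and with 286 CPM in control 4 DAT replicate 2 against 869 to 943 CPM in the other control libraries at 4 DAT. In heat at 4 DAT, TraesCS4A01G177500.2 had 358.1, 392.1, 1075 and 228.1 CPM, where replicates 2 and 4 are rich in that transcript and replicate 1 carried 0.692% of it. Without the 4 rich libraries its log2 ratio at 4 DAT was -0.35, against -0.56 with them, and without heat 4 DAT replicate 3, the highest heat library there, it was -1.21, and without control 4 DAT replicate 2 it was -0.83, both outside the limits of the rule; the part of that transcript in these values was not tested.

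In TraesCS4D01G027800 both transcripts were low in heat at 0 DAT. TraesCS4D01G027800.1 had 14.1, 9.03, 9.56 and 19.9 CPM in heat against 90.7, 116, 73.0 and 73.4 CPM in control. TraesCS4D01G027800.2 had 4.38, 10.4, 12.5 and 5.62 CPM in heat against 28.0, 71.7, 42.4 and 43.8 CPM in control. Neither overlapped between treatments, and the ratio of the gene was 0.159.

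In TraesCS2D01G375100 the sum over the gene was not lower at all, with a ratio of 1.005. TraesCS2D01G375100.3 had 0.755, 2.77, 0 and 0.0215 CPM in heat at 0 DAT against 4.01, 3.90, 2.91 and 5.46 CPM in control. TraesCS2D01G375100.2 had 5.51, 0, 4.47 and 3.58 CPM in heat at 0 DAT, and in control it was at or near 0 except for 1.03 CPM in replicate 2. In the heat library where the member was highest the other transcript was at 0, and where the member was at 0 or near it the other transcript was at 3.58 to 4.47 CPM. The estimated counts divide reads between the transcripts of a gene, so at these levels the division cannot be told apart from a change of transcript. The same holds for TraesCS4A01G384800.1. It made up 100% of the counts of its gene in control at 0 DAT and 29.9% in heat, and the ratio of the gene was 0.491.

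**Figure D5:**
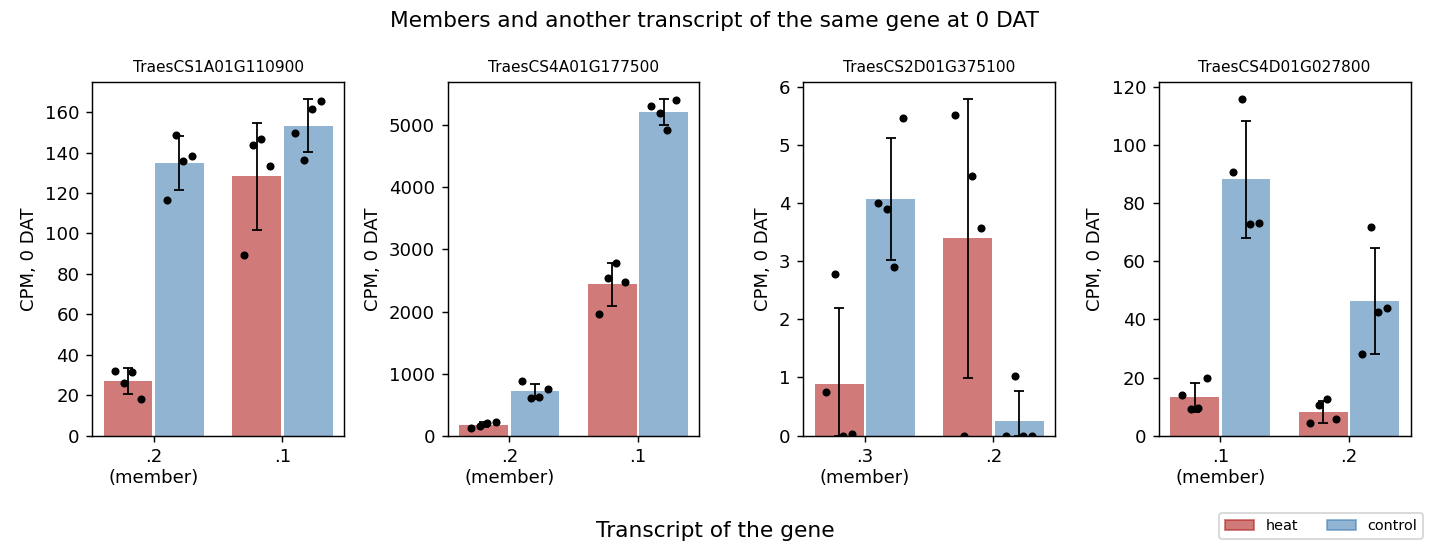
CPM at 0 DAT of a member and of another transcript of its gene, for 4 genes, with heat (red) left of control (blue); bars are means, points are libraries and whiskers are 1 SD (n = 4, lower whiskers end at 0). In TraesCS1A01G110900 and TraesCS2D01G375100 the other transcript overlaps between heat and control.

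The members were spread over the genome. By identifier, 21 lay in the A genome (35.0%), 14 in B (23.3%), 22 in D (36.7%) and 3 were unassigned (5.0%), against 32.6, 33.1, 32.9 and 1.44% of all tested transcripts. Of the 57 with a chromosome, 25 (43.9%) fell in the first or last 20% of their chromosome in gene order, against 32.0% of all tested transcripts and 54.7% of those that stayed below control at both later times. The closest neighbours were TraesCS1D01G375100.1 and TraesCS1D01G375700.1, 6 gene steps apart by the numbers in their identifiers, and no pair was closer. None of the 60 members and none of their genes was among the 614 transcripts of the shortened copy of the study's table of cleaved microRNA targets, 378 of which were among the 54517 tested. Accordingly, none of the 109 tested transcripts in the 14 annotated lists of that table, such as squamosa promoter-binding, F-box or kinase genes, was a member. With so small a share of all tested transcripts in that table, their absence from 60 members is no result about the members. Of the transcripts in that table, 1 met the limits at 0 DAT, the cytochrome P450 transcript TraesCS4A01G308600.1, with 0.438 CPM in heat and 5.20 CPM in control there, and it fell outside the set because its ratio at 1 DAT was 0.454.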

How the data were processed

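Leaf mRNA was measured in 24 libraries, 4 for each treatment (heat, control) and time (0, 1 and 4 DAT). The values deposited by the authors are estimated counts per transcript, made per the labels with Trimmomatic and kallisto; versions and the transcript index are not given in the sources used here, and the identifiers have the form of the IWGSC version 1 annotation. Counts split between similar transcripts by kallisto are not whole (81.9% of the members' counts). Libraries of one group are taken as separate pools of plants; the pools are described for the small RNA libraries, and p-values measure the spread between these libraries only. All 24 columns were used, and the number of columns left out was 0.

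CPM was the count over the column total times 1000000, and the rule of the set was applied to it. The members and gene lists were chosen with earlier results of these data known. Counts were rounded, filtered with filterByExpr (minimum count 10, minimum total 15, leaving 54517 of 137056 transcripts from 110790 genes) and fitted in edgeR 4.0.16 (R 4.3.3, limma 3.58.1) with TMM factors and a mean for each of the 6 groups; 4 DAT was compared with 1 DAT by the two-sided quasi-likelihood test with Benjamini-Hochberg adjustment, and called under an adjusted p of 0.05. SE is the absolute log2 fold change over the root of F. The fit was tested on simulated data. TMM factors averaged 1.35 ± 0.131 in the heat libraries of 0 DAT and 0.953 ± 0.106 in the control libraries (SD of 4).

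The rule for naming took the 8 most abundant in control at 0 DAT, the 8 with the lowest ratio there and those called. It also took 3 on either side of the 0.25 limit and 4 whose gene has another abundant transcript. Library values are given for only part of these, and not for TraesCSU01G130400.1, TraesCS3D01G081300.1 and TraesCS5D01G181600.4. TraesCS2D01G375100.3 and others were chosen after their values were seen. Alternatives were TMM and DESeq2 1.42.0 scaling, column totals, DESeq2 and likelihood ratio tests, no filter, counts per gene, a replicate block (by treatment and replicate number), and leaving out libraries. Same-numbered libraries of 1 and 4 DAT should hold the same plants, but their deviations correlated at -0.227 to -0.031 in heat and -0.259 to 0.013 in control. Correlations across members, the linked sets and the plotted examples were added after the data were seen. Python 3.11.15, pandas 2.3.3, numpy 2.4.6 and matplotlib 3.10.9 were used.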

Additional observations from a re-analysis of the deposited data

Results flagged for a closer look

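In 10 of 126 groups of 4 libraries (the 20 members named by rule and the summed share of all members, in 6 groups each) 1 library stood apart from the other 3; chance gives about 1 in 20 groups. In heat 1 DAT replicate 4, TraesCSU01G167700.1 had 433 CPM against 1310 to 1374 CPM in the others, and TraesCS1D01G375100.1 had 151 CPM against 296 to 310 CPM. In heat 1 DAT replicate 3, TraesCS4A01G177500.2 had 381 CPM against 672 to 690 CPM, and TraesCS6D01G202000.1 had 6.07 CPM against 10.3 to 10.97 CPM. In control 4 DAT replicate 2, TraesCS4A01G177500.2 had 286 CPM against 869 to 943 CPM. The libraries of the last 2 sentences are among the 4 rich in TraesCS1A01G000100.1.

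In heat 1 DAT replicate 1, TraesCS4D01G027800.1 had 40.8 CPM against 74.0 to 79.1 CPM. In heat 4 DAT replicate 1, TraesCS4D01G027800.1 had 150 CPM against 93.9 to 100 CPM, and TraesCS5D01G560200.1 had 32.3 CPM against 3.04 to 7.18 CPM. In heat 0 DAT replicate 2, TraesCS5A01G205600.1 had 6.71 CPM against 4.36 to 4.70 CPM. In control 4 DAT replicate 4, TraesCS3D01G106300.1 had 6.60 CPM against 11.1 to 11.99 CPM.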

How the results depend on the processing

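The number of transcripts in the set moved most with the scaling, which added many transcripts to it. The fewest of the 60 were kept when a single library was left out. With CPM on TMM totals 163 transcripts met the rule, 53 of them among the 60, and with DESeq2 size factors 168 did, 55 of them among the 60. On counts summed per gene 57 genes did (53 shared). Without 1 library at a time 52 to 75 transcripts did, with as few as 45 of the 60 among them (without control 1 DAT replicate 3), and without the 4 libraries rich in TraesCS1A01G000100.1 65 did (48 shared); 18 of the 60 were kept in all 24 sets that leave out 1 library. With TMM totals the ratio of 6 members was outside 0.67 to 1.5 at 1 DAT, and that of 1 at 4 DAT.

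For 4 against 1 DAT in heat, calls over all transcripts were 2059 with column totals alone (17.6% higher, against 39.3%), 2405 with no filter, 2223 with the replicate block, 1047 without the 4 libraries rich in TraesCS1A01G000100.1, 2208 with the 8 heat libraries alone and 5781 with the DESeq2 Wald test, and 2122 to 3816 without 1 library at a time. Calls over all transcripts were below 3760 by more than 1.5 times without heat 1 DAT replicate 1 (2316) or replicate 4 (2268) and without heat 4 DAT replicate 2 (2122) or replicate 3 (2327). Calls among the members were 0 with column totals, without the 4 libraries or with 8 libraries, 2 by the likelihood ratio test, 3 per gene, 3 by DESeq2 and 0 to 3 without 1 library at a time. In control, calls were 13 by the likelihood ratio test, 44 by DESeq2, 0 to 1 without 1 library at a time and 0 with the replicate block; none was a member in these settings. The cause of these shifts was not tested. Of 600 log2 ratios of named members under other settings, 11 moved by more than the spread of replicates, all at 0 DAT with TMM totals. Most of these settings leave out 1 library of a group of 4, which can hardly move a mean by that spread. Leaving out the 4 libraries rich in TraesCS1A01G000100.1 changes nothing at 0 DAT, where there are no such libraries. The low number moved is therefore no measure of how stable the ratios are. Counts under 10 limit the precision of 12 members in heat at 0 DAT.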
